A study of Rattus norvegicus with 10 samples.

Results

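*Thbs4* and *Dpt* encode 2 secreted proteins of the extracellular matrix, thrombospondin 4 and dermatopontin, and their transcripts were followed in cultured rat soleus myoblasts through 14 days of hindlimb suspension. They are 2 of the 32622 genes in the deposited count table, ENSRNOG00000012471 for *Thbs4* and ENSRNOG00000002947 for *Dpt*, and were chosen with their values in these libraries known, so that their levels and fold changes are given as a description with no test. Both genes had the same extremes. They were lowest in the cultures from muscles unloaded for 1 day (HS1) and highest in those unloaded for 3 days (HS3), a span of 20.6-fold for *Thbs4* and 21.4-fold for *Dpt*.

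The cells came from 3-month-old male Wistar rats with no stated genetic change. The 5 groups were caged rats with no suspension (Control) and rats whose hindlimbs were lifted off the floor for 1, 3, 7 or 14 days (HS1, HS3, HS7 and HS14), with 2 libraries each. Times in days below are days of suspension. Progenitor cells were released from the excised soleus muscles by collagenase, freed of fast-adhering fibro-adipogenic progenitors by pre-plating, and then grown for a further day in growth medium on Geltrex before RNA was taken. The suspended animal was thus the treated unit, and RNA was read from its cells after days in culture under the same conditions in every group. How many rats stand behind 1 library, and whether those of 1 group come from separate rats, is not given in the sources used here, so p-values may measure technical spread alone.

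Thrombospondins are matricellular glycoproteins that assemble outside the cell and bind collagens, integrins and growth factors. Thrombospondin 4 forms pentamers, is abundant in tendon and at the junction of tendon and muscle, and helps to order collagen there. Dermatopontin is a small tyrosine-rich protein that binds the proteoglycan decorin, promotes collagen fibril assembly and can modify the response to transforming growth factor beta. In muscle, both are best known from connective tissue cells and tenocytes.

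The 250 bases before the annotated start of each gene are shown because the transcripts moved widely and the promoters are where their initiation sequences lie. The sequences are those of RefSeq on build GRCr8, on chr2:25760346-25760595 (minus strand) for *Thbs4* and chr13:79656091-79656340 (plus strand) for *Dpt*, written 5′ to 3′ along the gene, and capitals mark matches to the motifs named below.
Thbs4: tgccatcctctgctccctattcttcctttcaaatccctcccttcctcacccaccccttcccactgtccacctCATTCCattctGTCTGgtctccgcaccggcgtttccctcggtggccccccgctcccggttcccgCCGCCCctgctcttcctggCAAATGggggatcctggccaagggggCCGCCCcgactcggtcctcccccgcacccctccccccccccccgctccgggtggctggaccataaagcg
Dpt: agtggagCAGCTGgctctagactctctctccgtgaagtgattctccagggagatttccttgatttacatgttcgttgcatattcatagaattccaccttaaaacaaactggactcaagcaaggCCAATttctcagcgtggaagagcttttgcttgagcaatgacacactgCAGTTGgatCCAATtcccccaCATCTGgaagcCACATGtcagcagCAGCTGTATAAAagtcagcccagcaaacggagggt
The *Thbs4* sequence was 67.6% G and C and that of *Dpt* 47.2%, against a median of 51.2% over 33469 rat promoters of the same length. Counting back from the annotated start, *Dpt* had the TATA box TATAAA on the sense strand from -29 to -24, a match found in 8.06% of promoters. Directly before it, from -35 to -30, lay CAGCTG, an E-box form that MyoD-family factors can bind, and a second copy lay from -243 to -238. CAGCTG was present in 12% of promoters. In all, *Dpt* had 5 matches to the general E-box CANNTG, those to CAGCTG included, and *Thbs4* had 1, with a match in 65.5% of promoters. *Dpt* also had 2 matches to the CCAAT box, present in 34.0%. The *Thbs4* sequence instead held 2 matches to the Sp1 box GGGCGG (30.5% of promoters), 1 to the TEAD motif GGAATG (12.1%) and 1 to the SMAD box CAGAC (42.9%). Neither held the AP-1 motif TGANTCA, which 6.34% had, and all but the TATA box were searched on both strands.

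Library totals lay between 20200972 and 28175200 counts, and 3 counts, taken as the floor of detection, corresponded to 0.106 to 0.149 CPM. CPM is the count per 1000000 counts of the library, here after scaling by the trimmed mean of M values (TMM). The table gives no gene lengths, so levels of *Thbs4* and *Dpt* are compared between libraries and not with each other. Replicate libraries differed by more than sampling noise in each group, and none was identical to another.

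*Thbs4* gave 1757 and 1882 counts in the Control libraries, 132 and 132 at 1 day, 2148 and 3018 at 3 days, 753 and 717 at 7 days, and 787 and 512 at 14 days. Scaled, these were 69.5 and 71.4 CPM in Control, 5.39 and 5.75 at 1 day, 109 and 120 at 3 days, 30.5 and 28.3 at 7 days, and 27.2 and 21.6 at 14 days. The HS1 libraries stood far below the others and the HS3 libraries above them, while HS7 and HS14 lay between HS1 and Control. No libraries of different groups overlapped. With 2 libraries per group, genes that were not called can also show no overlap. The share of all genes separated in this way was not computed. As means ± SD (n = 2), *Thbs4* was at 70.4 ± 1.35 CPM in Control, 5.57 ± 0.251 at 1 day, 115 ± 7.65 at 3 days, 29.4 ± 1.56 at 7 days and 24.4 ± 4.0 at 14 days. In relation to Control this was 7.91% at 1 day, 163% at 3 days, 41.8% at 7 days and 34.6% at 14 days. The rising order was thus HS1, HS14, HS7, Control and HS3. HS14 and HS7 did not differ beyond their spread, since the gap between their nearest libraries was 1.10 CPM, and the other neighbours were separated by 15.9 to 39.0 CPM. Among the genes detected in a group, *Thbs4* ranked 3103 of 16850 by mean CPM in Control, 9644 of 16667 in HS1 and 1868 of 16786 in HS3. RNA was taken from whole cultures, in which fewer cells of a type and less RNA per cell cannot be told apart.

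*Dpt* was counted much more sparsely, with 89 and 92 counts in Control, 20 and 14 at 1 day, 284 and 409 at 3 days, 124 and 128 at 7 days, and 36 and 38 at 14 days. The corresponding levels were 3.52 and 3.49 CPM in Control, 0.817 and 0.610 at 1 day, 14.4 and 16.3 at 3 days, 5.03 and 5.05 at 7 days, and 1.24 and 1.6 at 14 days. HS3 again stood apart at the top and HS1 at the bottom, but HS7 lay above Control, where *Thbs4* lay below it. Its libraries did not overlap between groups either, with the same limit as for *Thbs4*. Means ± SD (n = 2) were 3.5 ± 0.0207 CPM in Control, 0.713 ± 0.147 at 1 day, 15.3 ± 1.29 at 3 days, 5.04 ± 0.0196 at 7 days and 1.42 ± 0.251 at 14 days, and the rising order was HS1, HS14, Control, HS7 and HS3. At HS1 the exact Poisson 95% intervals of the 2 libraries were 0.499 to 1.26 CPM and 0.333 to 1.02 CPM, above the floor but wide. HS1 and HS14 were 0.423 CPM apart at their nearest libraries, and Control and HS7 1.51 CPM, more than the SD within these groups. The 95% intervals of single libraries overlapped nonetheless. The upper bound of 1.26 CPM in HS1 lay above the lower bound of 0.872 CPM in HS14. In Control the upper bound of 4.33 CPM lay above the lower bound of 4.18 CPM in HS7. These intervals cover counting error only and take each count as independent. In each library 69.4% to 72% of counts from 1 to 20 were even numbers, and the pair setting of the counting is not given. If both reads of a fragment were counted, the intervals are too narrow. In RefSeq on GRCr8 the *Dpt* gene overlaps a long non-coding RNA gene, LOC102546371, and since the strand setting of the counting is not given, reads of both cannot be told apart. *Thbs4* has no overlapping gene there.

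**Figure D1:**
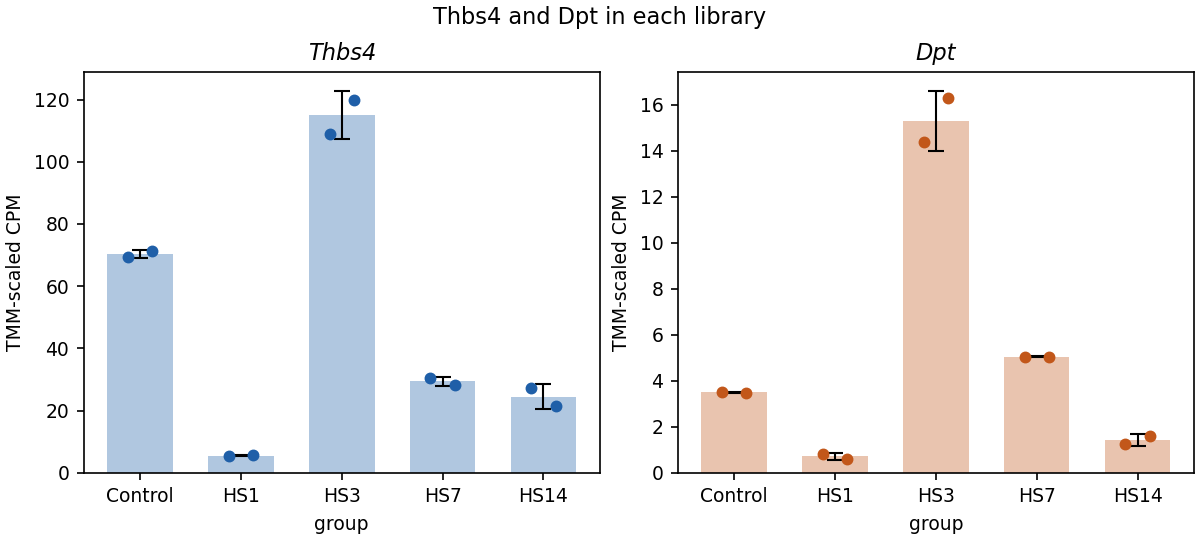
TMM-scaled CPM of *Thbs4* (left) and *Dpt* (right) in the Control, HS1, HS3, HS7 and HS14 cultures, with points for the 2 libraries of a group, bars for their mean and error bars for the SD, and a separate axis from 0 for each gene. Both genes were lowest in HS1 (means 5.57 and 0.713 CPM) and highest in HS3 (115 and 15.3 CPM), while HS7 lay below Control for *Thbs4* and above it for *Dpt*.

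The log2 fold changes against Control, estimated with edgeR from the 4 libraries of each comparison and given with their standard errors, showed where the genes kept step and where they parted. Both passed the filter on low counts in each comparison. After 1 day, *Thbs4* was lower than Control by -3.66 ± 0.10 on the log2 scale (12.6-fold), the 15th lowest estimate among 13013 genes tested, and *Dpt* by -2.28 ± 0.34 (4.87-fold), the 114th lowest. After 3 days the larger change was that of *Dpt*, with 2.13 ± 0.16 (4.36-fold, place 45 from the top of 13133 genes), against 0.70 ± 0.076 (1.62-fold, place 871) for *Thbs4*. After 7 days the signs differed, with -1.26 ± 0.078 for *Thbs4* and 0.53 ± 0.23 for *Dpt*. After 14 days both were lower, by -1.53 ± 0.085 and -1.31 ± 0.30. These 4 comparisons share the Control libraries.

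Between neighbouring times the first step of the 2 genes differed by less than its standard errors, and the last did not. From HS1 to HS3 the log2 change was 4.37 ± 0.12 for *Thbs4* and 4.42 ± 0.25 for *Dpt*, places 34 and 32 from the top of 13008 genes. From HS3 to HS7 it was -1.98 ± 0.096 and -1.62 ± 0.17. From HS7 to HS14, *Dpt* was lower by a further -1.82 ± 0.28 (3.54-fold), whereas *Thbs4* moved by -0.26 ± 0.11 (1.20-fold), and without HS14 replicate 2 or replicate 1 that estimate was -0.10 or -0.44. *Thbs4* was thus near its day 14 level by day 7, when *Dpt* still lay above Control.

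**Figure D2:**
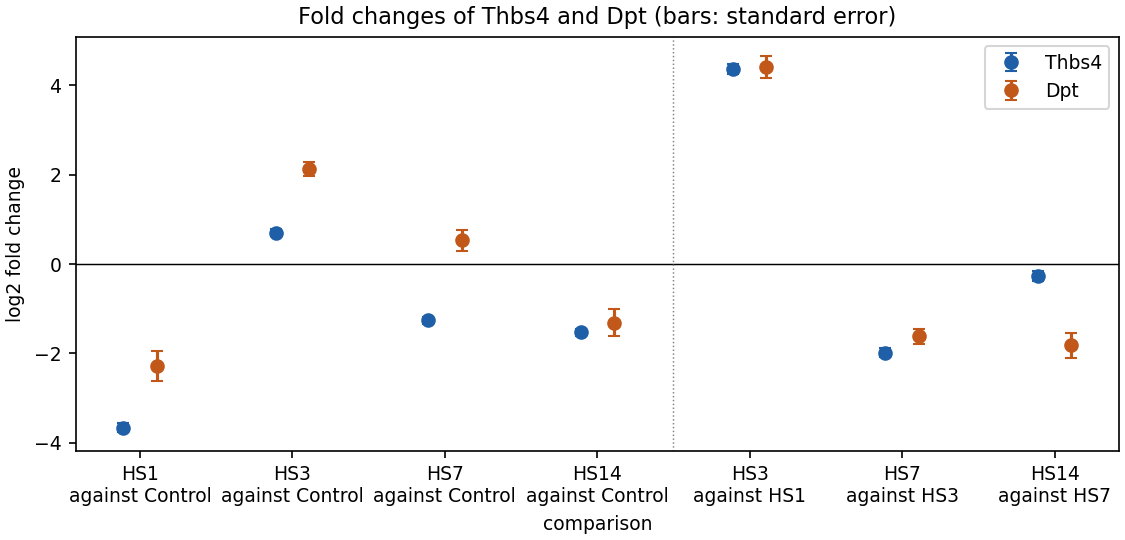
Log2 fold changes of *Thbs4* (blue) and *Dpt* (orange) for the 4 times against Control (left of the dotted line) and between neighbouring times (right), with bars for the standard error of the edgeR estimate from 4 libraries. The points lie close together for HS3 against HS1 (4.37 and 4.42) and on opposite sides of 0 for HS7 against Control (-1.26 and 0.53).

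The count of *Thbs4* per count of *Dpt* within a library needs no scaling between libraries, and was compared across groups only. It was 19.7 and 20.5 in Control, 6.60 and 9.43 at 1 day, 7.56 and 7.38 at 3 days, 6.07 and 5.60 at 7 days, and 21.9 and 13.5 at 14 days. The Control libraries thus stood above the HS1, HS3 and HS7 libraries with no overlap, and HS14 spanned the Control values. Means ± SD (n = 2) were 20.1 ± 0.566 in Control, 8.02 ± 2.0 at 1 day, 7.47 ± 0.127 at 3 days, 5.83 ± 0.332 at 7 days and 17.7 ± 5.94 at 14 days, so that after 14 days the balance of the 2 transcripts was not distinguishable from Control although both were lower.

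**Figure D3:**
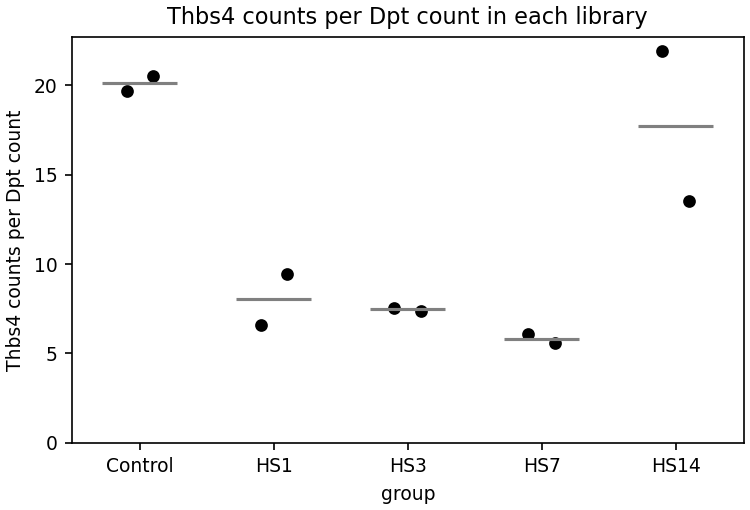
Counts of *Thbs4* per count of *Dpt* in each library (points) with the group mean (line), on a linear axis from 0. Control (19.7 and 20.5) and HS14 (21.9 and 13.5) lie above HS1, HS3 and HS7, whose libraries range from 5.60 to 9.43.

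Marker transcripts of other cell types are given beside these levels, with the sums that 1 gene dominates also shown less that gene, a step added after the values were seen. For genes other than *Thbs4* and *Dpt*, a gene was called where edgeR's quasi-likelihood test gave a Benjamini-Hochberg adjusted p under 0.01 and the log2 fold change lay beyond 1.5. Of 18 fibro-adipogenic marker genes 11 had an identifier, and their summed level was 7560 to 8040 CPM in Control, 2470 in both HS1 libraries, 15900 to 19900 at 3 days, 8410 to 8420 at 7 days and 2900 to 3090 at 14 days. *Col1a1* made up most of this sum. Less *Col1a1*, the other 10 summed to 1020 to 1030 CPM in Control, 294 to 297 at 1 day, 1690 to 1870 at 3 days, 570 to 685 at 7 days and 688 to 694 at 14 days. Both sums were lowest in HS1 and highest in HS3, as *Thbs4* and *Dpt* were, while HS7 lay above Control with *Col1a1* and below it without.

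The fibro-adipogenic markers did not move as one. A gene has a symbol here only if the study lists it as changed at some time. In HS1, 8 of 10 tested fell (80%), against 2.18% of all tested genes and 34.5% of the genes with a symbol. In HS3, 10 of 11 lay above Control and 1 was called higher (9.09%), against 0.777% and 11.5%. In HS7, 6 of 10 lay below Control and 3 fell (30%, against 1.63% and 25%). In HS14, 7 of 11 lay below it and 5 fell (45.5%, against 2.01% and 28.6%). The HS3 and HS7 shares were thus near those of the genes with a symbol. *Pdgfra*, the receptor that defines fibro-adipogenic progenitors, was at 148 ± 1.5 CPM in Control, 30.9 ± 0.766 at 1 day, 301 ± 5.01 at 3 days, 62.5 ± 0.169 at 7 days and 58.1 ± 1.21 at 14 days. *Thy1*, a surface glycoprotein of the same cells, was at 479 ± 9.44, 159 ± 2.02, 950 ± 98.4, 160 ± 13.3 and 72.6 ± 7.32 CPM in those groups. *Dcn*, by contrast, lay below Control at 3 days and was highest at 14 days, and *Lum* and *Col14a1* lay above Control at 7 days. The part of these cells in the levels of *Thbs4* and *Dpt* was not tested.

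The 4 tendon cell markers with an identifier (of 12, *Mkx*, *Fmod*, *Cilp* and *Prg4*) summed to 202 to 207 CPM in Control, 39.1 to 39.5 at 1 day, 190 to 193 at 3 days, 239 to 288 at 7 days and 190 to 234 at 14 days. Most of this was *Prg4*, and the other 3 summed to 31.7 to 33.3 CPM in Control, 9.41 to 9.64 at 1 day, 67.8 to 89.1 at 3 days, 48.9 to 73.7 at 7 days and 9.09 to 14.2 at 14 days. Without *Prg4* the mean tendon sum was thus highest in HS3, but its libraries overlapped those of HS7. *Cilp*, a secreted protein of cartilage and tendon, made up most of that sum in HS3 and was called higher there (65.9 ± 13.9 CPM against 22.4 ± 0.33). *Fmod* was not called there (10.1 ± 0.486 CPM against 8.11 ± 1.0). *Mkx*, a transcription factor of tendon cells, was between 0.405 and 2.90 CPM throughout. It was called lower in HS7 (0.439 ± 0.0484 CPM against 1.95 ± 0.189), where the tendon sums with and without *Prg4* lay above Control. The 5 pericyte and smooth muscle markers (of 10) summed to 212 to 216 CPM in Control, 87.3 to 87.4 at 1 day, 397 to 434 at 3 days, 221 to 265 at 7 days and 157 to 185 at 14 days, the group order of *Dpt*. Less *Pdgfrb*, the most abundant, the means were 46.3 CPM in Control, 29.9 at 1 day and 50.6 at 3 days. They were 140 CPM at 7 days and 71.8 at 14 days, nearly all of it *Notch3* (136 ± 5.32 and 67.6 ± 15.7 CPM). *Myocd* was called lower than Control at both of these times (-4.59 ± 0.33 and -3.51 ± 0.25). *Lmod1* lay below Control at both without a call (-0.83 ± 0.23 and -1.36 ± 0.24). *Rgs5* was at 0 in both Control libraries and at most 1.28 CPM elsewhere, with a call as higher at 14 days.

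The 9 myogenic markers with an identifier (of 16, among them *Myog*, *Mymk* and *Myh3*) summed to 1380 to 1450 CPM in Control, 892 to 1010 at 1 day, 2950 to 3070 at 3 days, 5290 to 8730 at 7 days and 1050 to 1140 at 14 days, so the labelled cell type carried its differentiation markers in each group. *Pax7* and *Myf5* are not analysed here, having no identifier in the sources used. Endothelial markers (9 of 14) summed to 9.84 to 12 CPM in Control, 8.5 to 9.10 at 1 day, 14.1 to 14.4 at 3 days, 11.6 to 15.8 at 7 days and 21.1 to 23.5 at 14 days. *Flt4* made up most of this sum in Control (6.76 ± 0.226 CPM). Without it the means were 4.16 CPM in Control, 2.24 at 1 day, 9.53 at 3 days, 12.3 at 7 days and 19.6 at 14 days. In HS14, 7 of 9 rose (77.8%), against 0.524% of all tested genes and 4.97% of the genes with a symbol called higher. In HS7, 4 of 8 tested rose (50%), against 1.95% and 26.5%. *Flt4* was called lower in HS7 (-2.26 ± 0.26, 1 of 8, against 1.63% and 25%), and in HS14 it lay below Control without a call (-1.31 ± 0.22). Only 2 of the 9 were tested in HS1 and 4 in HS3. Several thus passed the low-count filter only through the group where they were high, which inflates the shares called higher. *Cdh5*, the cadherin of endothelial junctions, was at 0.194 ± 0.0605 CPM in Control, 2.61 ± 0.897 in HS7 and 4.79 ± 0.517 in HS14, and *Emcn* was at 0 in 4 libraries. Immune markers (4 of 11) summed to 59.2 to 61.8 CPM in Control, 101 at 1 day, 22.9 to 30.6 at 3 days, 48.5 to 51.8 at 7 days and 68.4 to 74.5 at 14 days, and *Spn* was the most abundant of them. The other 3 summed to 5.34 to 5.54 CPM in Control, 3.43 to 3.66 in HS1, 10.3 to 15.6 in HS3, 10.6 to 20.8 in HS7 and 7.03 to 8.23 in HS14. *Lyz2*, a lysozyme of myeloid cells, was called higher in HS3 (5.89 ± 2.01 CPM against 1.2 ± 0.09), where *Spn* was called lower. *Myo1g* was called higher in HS7 (12.9 ± 5.81 CPM against 3.5 ± 0.417). Schwann cell markers (4 of 8) summed to 31.4 to 33.7 CPM in Control, 8.45 to 8.74 at 1 day, 58.3 to 62.5 at 3 days, 74.1 to 96.6 at 7 days and 27.0 to 32.2 at 14 days. *Erbb3* made up most of this sum in HS7 (62.0 ± 16.3 CPM). Without it the means were 21.3 CPM in Control, 5.06 at 1 day, 38.7 at 3 days, 23.4 at 7 days and 17.9 at 14 days, the group order of *Dpt*. What part any of these cells had in the levels of *Thbs4* and *Dpt* was not tested.

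The family of *Thbs4* has 5 members, of which *Thbs2* alone had an identifier besides it. Thrombospondin 2 is a trimeric relative that limits angiogenesis and affects collagen fibril form. It was at 602 and 650 CPM in Control, 132 and 136 at 1 day, 1800 and 1830 at 3 days, 654 and 871 at 7 days, and 235 and 192 at 14 days. Its libraries followed the order of *Dpt* rather than that of *Thbs4*, with HS7 above Control, though narrowly (654 against 650 CPM at the nearest). Leaving out 1 library gave log2 changes of 0.06 to 0.47 for HS7 against Control. In edgeR's test *Thbs2* fell at 1 day (-2.22 ± 0.054, adjusted p = 4.35e-18), rose at 3 days (1.53 ± 0.061, adjusted p = 8.67e-09) and fell at 14 days (-1.56 ± 0.084, adjusted p = 1.62e-07), and at 7 days it did not pass (0.29 ± 0.18, adjusted p = 0.296). The HS3 and HS14 changes lay near the fold limit, and were 1.47 without Control replicate 1 and -1.42 without HS14 replicate 2.

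Symbols could be given only to the 770 genes that the study lists as changed at some time and names, so each list here, the cell type markers included, holds genes picked on these samples, and its count is not independent evidence of a direction. Dermatopontin's partner decorin belongs to the small leucine-rich proteoglycans, which coat collagen fibrils, and 5 of the 14 listed had an identifier. All 5 fell in HS1, where 2.18% of all tested genes and 34.5% of the genes with a symbol were called lower. *Lum* (lumican) changed by -3.03 ± 0.29 and *Prelp*, which ties collagen to basement membranes, by -2.34 ± 0.064. *Dcn* (decorin) changed by -2.11 ± 0.064, *Fmod* (fibromodulin) by -2.03 ± 0.23 and *Bgn* (biglycan) by -1.94 ± 0.050. None was called in HS3 by edgeR or DESeq2 (4 had an unadjusted p under 0.05). In edgeR's test *Bgn*, *Prelp*, *Lum* and *Dcn* had an adjusted p of at most 0.00298 there, but their changes stayed within the fold limit of 1.5. In HS3, 0.777% of tested genes were called higher and 0.350% lower, and 11.5% and 5.12% of the genes with a symbol. *Prelp* fell in HS7 (-1.72 ± 0.065) and, with *Bgn*, in HS14 (-2.73 ± 0.066 and -1.53 ± 0.042). In HS7 the share called lower was 20% of the proteoglycans, 1.63% of all tested genes and 25% of the genes with a symbol. The same shares in HS14 were 40%, 2.01% and 28.6%.

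Decorin itself did not keep the course of dermatopontin. *Dcn* was at 165 and 160 CPM in Control, 37.2 and 38.0 at 1 day, 80.2 and 74.9 at 3 days, 305 and 235 at 7 days, and 439 and 454 at 14 days. Its HS3 libraries lay below Control, where those of *Dpt* were highest, and its HS14 libraries were the highest of the series, where *Dpt* lay below Control. In HS3 its log2 change of -1.07 ± 0.074 (adjusted p = 4.56e-07) and in HS14 that of 1.45 ± 0.049 (adjusted p = 2.77e-25) had low p-values but stayed within the fold limit of 1.5. *Lum* had a similar mixed course, with mean levels of 6.93 CPM in Control, 0.852 at 1 day, 12.2 at 3 days, 13.0 at 7 days and 9.50 at 14 days.

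Over all structural matrix genes of the lists, 50 had an identifier besides *Thbs4* and *Dpt*. In HS1, 34 of 49 tested fell (69.4%, against 2.18% of all tested genes), and the median log2 change of the 49 was -1.84 against 0.01 over all tested genes. *Thbs4*, at -3.66, lay below each of them. None of the 49 was called higher by edgeR's test or by DESeq2, and 0.0922% of all tested genes were. At an unadjusted p under 0.05, 1 was higher, *Col4a5* (0.45 ± 0.08, adjusted p = 0.000179 in edgeR's test), which stayed within the fold limit. Among the 718 genes with a symbol outside the matrix lists, 32.0% of those tested fell, with a median of -0.82. In all, 7 of 13 collagens fell, led by *Col14a1*, which binds decorin on fibrils (-2.73 ± 0.19, adjusted p = 3.11e-10), *Col8a1* (-2.0 ± 0.071, adjusted p = 1.58e-15) and *Col6a1* of the pericellular network (-1.95 ± 0.052, adjusted p = 1.07e-17). Of the microfibril and elastic fibre genes 5 of 7 fell, among them *Mfap5* (-2.75 ± 0.10) and the fibrillins *Fbn1* (-2.37 ± 0.052) and *Fbn2* (-2.31 ± 0.21). Of 23 other matrix glycoproteins 16 fell, including *Sned1* (-3.01 ± 0.50), *Tgfbi*, a protein induced by transforming growth factor beta (-2.98 ± 0.069), and the cartilage proteoglycan *Acan* (-2.57 ± 0.28).

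In HS3, 9 of 50 matrix genes rose (18%, against 0.777% of all tested genes and 11% of the genes with a symbol outside the lists), with a median of 0.87 against -0.01 over all tested genes. The estimate for *Dpt*, 2.13, lay above those of the 9 genes called, while *Thbs4*, at 0.70, lay below the median of the list. None was called lower by edgeR or DESeq2, and 4 were lower at an unadjusted p under 0.05. Of these, *Dcn* (-1.07 ± 0.074, adjusted p = 4.56e-07) and *Prg4* (-0.62 ± 0.093, adjusted p = 0.000369) missed only the fold limit in edgeR's test. Those that rose beside *Thbs2* included *Fbn2* (2.11 ± 0.14, adjusted p = 3.40e-07) and *Col15a1*, a basement membrane collagen (1.69 ± 0.25, adjusted p = 0.000323). A further 6 glycoproteins rose, led by *Cthrc1*, a secreted regulator of collagen deposition (1.87 ± 0.18), *Ccn5* (1.81 ± 0.11) and the large adhesion protein *Svep1* (1.78 ± 0.078).

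In HS7 the list was split, as *Thbs4* and *Dpt* were. Here 10 of 50 rose (20.0%, against 1.95% of all tested genes) and 3 fell (6.0%, against 1.63%), with a median of 0.22 against 0.00. Of the genes with a symbol outside the lists, 27.0% were called higher and 26.4% lower. Of the collagens 4 rose, among them *Col19a1* (2.07 ± 0.34), *Col26a1* (2.0 ± 0.38) and *Col25a1* (1.81 ± 0.27), these with mean levels of 3.74 to 5.71 CPM. The glycoproteins that rose included *Postn*, periostin (1.92 ± 0.15, adjusted p = 0.000833), *Hmcn1*, a hemicentin of basement membranes (1.85 ± 0.11, adjusted p = 3.22e-09), and *Frem2*, a basement membrane gene at 3.24 ± 2.41 CPM against 0.115 ± 0.0514 CPM in Control, which was at the floor (adjusted p = 0.000409). The *Frem2* call was lost without either Control library (adjusted p = 0.0409 and 0.0344). *Efemp1*, an elastic fibre protein (-3.19 ± 0.36), *Tinagl1* (-1.59 ± 0.27) and *Prelp* fell.

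In HS14, 14 of 49 fell (28.6%, against 2.01% of all tested genes and 28.6% of the genes with a symbol outside the lists) and 1 rose (2.04%, against 0.524%), with a median of -0.86 against 0.00. *Thbs4* and *Dpt*, at -1.53 and -1.31, were both below that median. The count was 9 without HS14 replicate 2. Of the microfibril genes 5 of 7 fell, among them *Efemp1* (-4.02 ± 0.41), *Mfap5* (-2.65 ± 0.095) and the latent growth factor binding protein *Ltbp2* (-1.68 ± 0.043). Likewise 3 collagens fell, *Col1a1* of the main fibril (-1.56 ± 0.041), *Col6a1* (-1.55 ± 0.051) and *Col4a5* of basement membranes (-1.52 ± 0.098), each close to the fold limit. *Ccn5* (-1.89 ± 0.17), the cartilage intermediate layer gene *Cilp* (-1.65 ± 0.14) and *Spon2* (-1.54 ± 0.24) fell as well. *Sparcl1*, a secreted relative of SPARC, rose (1.71 ± 0.29, adjusted p = 6.61e-06).

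**Figure D4:**
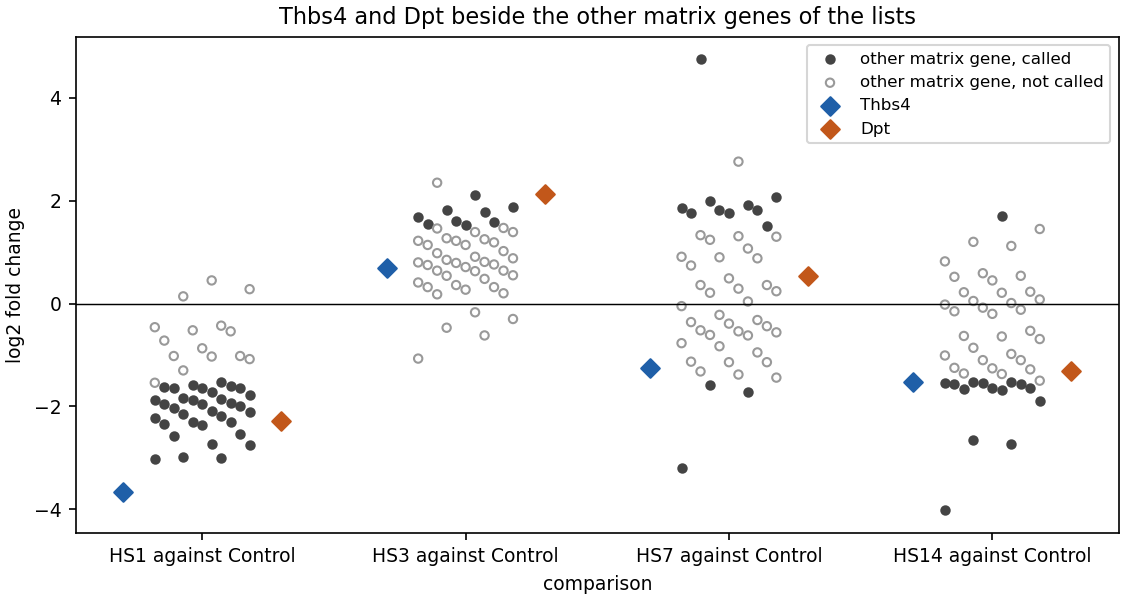
Log2 fold changes against Control at 4 times for the matrix genes of the lists (filled circles called by edgeR, open circles not called) with *Thbs4* (blue diamonds) and *Dpt* (orange diamonds) at the sides, horizontal scatter being for display alone. *Thbs4* lies below the listed genes in HS1 (-3.66), *Dpt* lies among the highest in HS3 (2.13), and both lie below the list's median in HS14.

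Cell surface receptors of thrombospondins and matrix ligands took less uniform courses. Of 26 integrin and other receptor genes listed, 7 had an identifier. In HS1, 3 of 7 fell, *Itgb3* (-2.26 ± 0.19), which binds thrombospondins as a partner of the alpha V chain, *Itga9* (-1.66 ± 0.22) and *Itga8* (-1.59 ± 0.11), and the list median was -1.32. That share of 42.9% stood beside 2.18% of all tested genes and 34.5% of the genes with a symbol. *Itga3*, a laminin receptor chain, fell in HS3 (-1.93 ± 0.064, 1 of 7, against 5.12% of genes with a symbol) and in HS7 (-2.09 ± 0.075), where the collagen receptor chain *Itga2* fell with it (-1.77 ± 0.21). *Itga8* and *Itgb6* rose in HS7 (1.64 ± 0.073 and 1.64 ± 0.13). With 2 of 7 (28.6%) in each direction, the HS7 shares were near those of the genes with a symbol, 26.5% higher and 25% lower. In HS14 the collagen receptor chain *Itga11* fell (-1.92 ± 0.17, 1 of 7, against 28.6% of genes with a symbol), and the list medians at HS3, HS7 and HS14 were 0.52, 0.22 and -1.03.

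In the transforming growth factor beta pathway, on which dermatopontin acts outside the cell, 10 of 24 genes had an identifier. Of 9 tested, 5 fell in HS1 (median -1.52, 55.6% against 2.18% of all tested genes and 34.5% of genes with a symbol), among them the receptor *Acvrl1* (-2.61 ± 0.13) and *Lrrc32*, which holds the latent ligand at the cell surface (-1.70 ± 0.077). In HS3, 2 of 10 rose (20.0%, against 0.777% of all and 11.5% of genes with a symbol), *Inhbb*, an activin subunit (2.39 ± 0.49, adjusted p = 0.00354), and the ligand *Gdf10* (1.84 ± 0.38, adjusted p = 0.00357). *Gdf10* was at 3.56 and 2.62 CPM in HS3 and at 1.11 and 0.607 CPM in Control, and in HS1, HS7 and HS14 its libraries held 0 to 0.0871 CPM, below the floor. In HS7, 4 of 10 rose (40%, against 1.95% and 26.5%), including the inhibin subunit *Inha* (2.33 ± 0.33), *Nrep* (2.11 ± 0.10) and the activin antagonist *Fstl3* (1.78 ± 0.098), and *Gdf10* was called lower. In HS14, *Acvrl1* (-1.55 ± 0.12) and *Gdf10* were called lower (2 of 10, against 2.01% of all and 28.6% of genes with a symbol), and the median was -0.68.

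The genes most like each of the 2 in pattern were found over the 10 libraries as the root mean square difference of log2 CPM after centring each gene on its own mean, among 13691 genes kept. The 5 named with a symbol were in each case also the nearest 5 of all genes. For *Thbs4*, which varied by 1.49 around its own mean by this measure, they were *Tgfbi* (0.254), the lymphatic growth factor *Vegfd* (0.267), *Adamtsl3* (0.287), the interferon-induced *Ifitm1* (0.329) and the dynamin *Dnm3* (0.332). Mean levels of *Tgfbi* were 213 CPM in Control, 27.1 at 1 day, 358 at 3 days, 110 at 7 days and 89.7 at 14 days, and those of *Vegfd* 65.6, 5.50, 149, 35.1 and 20.1. Both thus had the group order of *Thbs4*, with HS7 and HS14 below Control.

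For *Dpt*, which varied by 1.48, the nearest were *Thbs2* (0.284), the chemerin receptor *Cmklr1* (0.327), *Fbn2* (0.363), *Svep1* (0.377) and *Cthrc1* (0.412). Of these, 4 encode matrix proteins. *Cmklr1* was at 5.30 CPM in Control, 0.905 at 1 day, 16.9 at 3 days, 7.57 at 7 days and 2.85 at 14 days, the order of *Dpt*. *Fbn2* and *Svep1* differed from it in HS7, where they lay at 7.13 and 33.1 CPM against 8.90 and 38.7 in Control. *Thbs4* and *Dpt* were not among each other's nearest genes, with a difference of 0.730 between them, place 103 in the list of *Thbs4* and place 90 in that of *Dpt*. The points share libraries, and genes with a symbol are those the study called, so the likeness is a description of these 10 libraries.

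**Figure D5:**
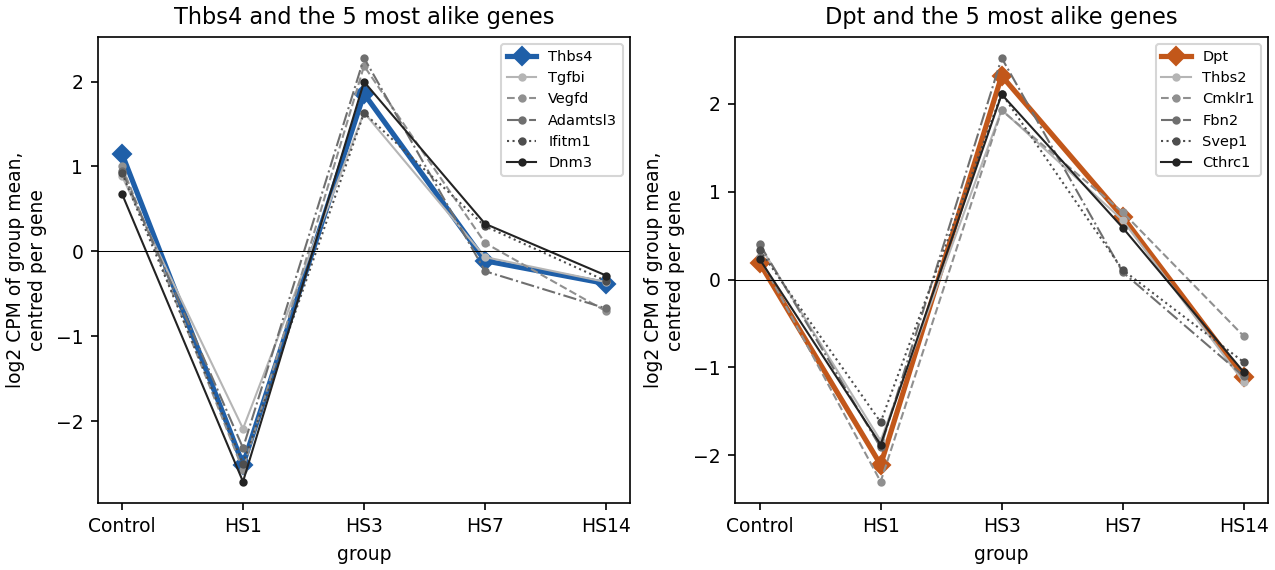
Log2 CPM of group means, centred per gene, for *Thbs4* (left, blue) and *Dpt* (right, orange) with the 5 genes most like each (grey to black lines), over Control, HS1, HS3, HS7 and HS14. Every line has its low point in HS1 and its high point in HS3. In the left panel Control stands above HS7 in every line. In the right panel it stands below HS7 for *Dpt*, *Thbs2*, *Cmklr1* and *Cthrc1* and above HS7 for *Fbn2* and *Svep1*.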

How the data were processed

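RNA libraries of rat soleus myoblast cultures were made with a stranded mRNA kit. The authors aligned reads by STAR, assigned them to genes by featureCounts 1.6.4 and deposited raw counts of 32622 Ensembl genes for 10 libraries, with no normalization. The methods name the build mRatBN7.2 and the submitters' processing notes Rnor_6.0, and pair, strand and multiple-mapping settings of the counting are not given in the sources used here. Between 69.4% and 72.0% of counts from 1 to 20 were even numbers in each library.

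Counts were fitted with edgeR 4.0.16 in R 4.3.3 (filterByExpr, TMM, robust quasi-likelihood test, Benjamini-Hochberg adjustment over all tested genes) on the 4 libraries of each comparison. A gene was called at an adjusted p under 0.01 with a log2 fold change beyond 1.5, the limits of the study. Errors of fold changes are standard errors. The exact Poisson intervals are of each library's count. Likeness used log2 CPM with a prior count of 2. Fits were tested on simulated data. The alternatives were DESeq2 1.42.0, size factors of relative log expression (RLE), no filter, 1 fit of all libraries, the replicate block, a log2 limit of 1, group means for likeness, and leaving out each library.

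The members and lists were chosen with earlier results of these data known. Symbols came from the supplementary table of the study, which pairs 770 identifiers with symbols, and its fold changes and p-values were not used. Named are *Thbs4*, *Dpt*, each measured thrombospondin and small leucine-rich proteoglycan, up to 3 called genes with the largest change per other list, time and direction whose libraries did not overlap, the 5 genes most like each member, and cell type markers. Promoters are from RefSeq on GRCr8.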

Additional observations from a re-analysis of the deposited data

Results flagged for a closer look

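Changes from Control that ran in opposite directions at different times were looked for in *Thbs4* and *Dpt* alone, as cases in which both libraries of one time lay above the Control libraries and both of another lay below them. There were 7 such pairs of times, and the differences were not tested, because the genes were chosen with these values known. For *Thbs4*, below Control in HS1, HS7 and HS14 and above it in HS3, the log2 change in HS3 was higher than that in HS1 by 4.36. It was different by -1.96 in HS7 and by -2.23 in HS14 from that in HS3. For *Dpt*, above Control in HS3 and HS7 and below it in HS1 and HS14, the change in HS3 exceeded that in HS1 by 4.41 and the change in HS7 exceeded it by 2.81. In HS14 the *Dpt* change differed from that in HS3 by -3.44 and from that in HS7 by -1.84. All of these share the Control libraries.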

How the results depend on the processing

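No fold change of *Thbs4* or *Dpt* changed sign under the alternatives run, and 282 of 308 values and counts moved by less than the spread within groups or, for counts, by no more than 1.5 times. Leaving out 1 library gave -2.51 to -2.09 for *Dpt* in HS1, -1.71 to -1.38 for *Thbs4* in HS14, 4.23 to 4.64 for *Dpt* from HS1 to HS3, and -0.44 to -0.10 for *Thbs4* from HS7 to HS14. It gave 148 to 383 genes called higher in HS7, the lowest without Control replicate 2, and 9 to 16 matrix genes called lower in HS14. With a log2 limit of 1, calls over all genes were 37 higher and 494 lower at 1 day, 268 and 107 at 3 days, 511 and 419 at 7 days, and 140 and 516 at 14 days. Among matrix genes that limit gave 21 higher and 1 lower in HS3, 9 lower in HS7, and 4 higher and 22 lower in HS14. DESeq2 called 35 genes higher in HS14 in place of 69. Over group means, 3 of the 5 genes most like *Dpt* remained. The causes of these shifts were not tested, apart from the wider limit, which admits more genes by its construction.

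The replicate numbers did not pair the libraries, as deviations of same-numbered libraries correlated at -0.0165 to 0.0417 between groups. With the replicate block, *Dpt* in HS1 was at -2.29 and *Thbs4* at -3.66, and 32 matrix genes were called lower in HS1. Among named list genes 43 of 61 calls were kept under each alternative, and the 18 others lay near the fold limit or in genes with few counts. *Gdf10* lost its call at each of the 4 times under at least 1 alternative. Leaving out the most abundant marker of each cell type, a step added after the data were seen, changed the order of groups in several sums. It put HS7 below Control in the fibro-adipogenic sum and HS3 above Control in the tendon sum. The highest mean moved from HS3 to HS7 for pericytes and smooth muscle, and from HS7 to HS3 for Schwann cells. For immune markers HS1 went from the highest mean to the lowest. With 2 libraries per group, each SD rests on 2 values, and at 14 to 20 counts in HS1 the depth limits the *Dpt* estimate.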
